A study of Canis lupus familiaris with 4 samples.

Results

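The genes of the interleukin, TNF and chemokine receptor families were followed in canine mammary ductal carcinoma and in adjacent non-tumor mammary tissue. Members were all genes of the count tables whose symbol begins with IL and a digit, TNFSF, TNFRSF, TNFAIP, CSF2, CSF3, IFNAR, IFNGR, ACKR, or CCR or CXCR and a digit, together with TNF, LIF, LIFR, OSM, OSMR, CX3CR1 and SOCS1 to SOCS7. This gave 64 of 11277 genes, of which 14 encode ligands, 34 signaling receptor chains, 7 decoys, antagonists or scavengers and 9 intracellular proteins. A RefSeq gene table for the dog holds 162 protein-coding symbols of the same pattern, and 63 of them are among these genes, while CXCR4 is not in that table under its symbol. The other symbols, among them TNF, IL6, IL1B, LIF, OSM and SOCS3, have no row in the count tables and could not be analysed.

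Cytokines are messengers between epithelial, stromal and immune cells, and each acts through a small set of receptor chains that are shared within a family. Most interleukin receptors signal through JAK kinases and STAT transcription factors and are dampened by SOCS proteins, whereas TNF and interleukin-1 receptors signal through adaptor proteins to NF-kB. In the mouse mammary gland, RANKL (TNFSF11) made by hormone-sensing luminal cells drives the growth of alveoli in pregnancy, and LIF and oncostatin M act through STAT3 when the gland regresses after weaning.

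RNA was sequenced in 4 libraries, of which T1 and T2 are mammary ductal carcinoma and C1 and C2 are adjacent non-tumor tissue, called control. They came from radical mastectomies of 6 intact female dogs of different breeds, 5 to 14 years old, with early-stage disease, and each library pools 3 dogs. By the paper's account T1 and C1 share their dogs (pool 1), as do T2 and C2 (pool 2), so n = 2 refers to pools, and differences from dog to dog are hidden. The tissue was taken whole and not sorted, so fewer cells of a type and less RNA per cell cannot be told apart. The files give no coordinates and no source used here names the genome build, so genes carry only their symbols.

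Library totals were 35496260 counts in T1 and 3236218 in T2, against 32352002 in C1 and 4027367 in C2, so pool 2 limits the precision of low genes. Among the members, the lowest count in a library was 76 in T1 and 4 in T2, against 64 in C1 and 10 in C2, and none was at 0. In T2, 9 members had fewer than 10 counts. Levels are CPM, a gene's count relative to the library total after TMM scaling. They are not divided by gene length and are therefore compared between tissues and not between genes. A gene was called higher or lower at an adjusted p under 0.05 (edgeR's quasi-likelihood test, Benjamini-Hochberg over all 11277 genes) and a log2 fold change of 1 or more in size. The filter on low counts removed none of the 11277 genes, so all 64 members were tested. At 2 libraries against 2 the smallest p of an exact two-sided permutation test is 0.333, and every call therefore comes from the model over all genes.

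The tissues differed in markers of several cell types, in both directions. The measured T and NK cell markers summed to 12.7 and 12.2 CPM in T1 and T2, against 36.8 and 28.3 CPM in C1 and C2 (5 of 15 listed genes measured, 2 lower, and CD8A from 1.19 CPM upwards in each library). Blood endothelial markers summed to 279 and 282 CPM in carcinoma, against 589 and 632 CPM in control (5 of 11 measured, 3 lower). Luminal epithelial markers summed to 681 and 826 CPM in carcinoma and 1171 and 1184 CPM in control (7 of 13 measured), a sum in which ESR1, ELF5 and PGR were lower while ELF3, KRT19 and KIT had positive log2 fold changes of 0.85, 0.22 and 0.19 that did not pass, for a list median of −0.32. EPCAM was present at 147 CPM or more in every library. No measured marker of these 3 cell types was at 0 in any library. Fibroblast markers summed to 2719 and 3550 CPM in carcinoma, against 7264 and 8208 CPM in control, and striated muscle markers to 21.6 and 27.1 CPM in carcinoma, against 1889 and 3032 CPM in control. Mast cell markers summed to 148 and 145 CPM in carcinoma, against 196 and 169 CPM in control (5 of 9 measured, 3 lower). Most of that sum was KIT, which did not pass. Other lists summed higher in carcinoma. Neutrophil markers reached 118 and 110.0 CPM, against 21.4 and 17.4 CPM in control (4 of 11 measured, 3 higher and 1 lower). Chondrocyte markers reached 1106 and 1417 CPM, against 107 and 115 CPM in control (7 of 7 measured, 3 higher). Of these, 6 had positive log2 fold changes, while COL9A1 had one of −0.71 that did not pass. Basal and myoepithelial markers reached 1243 and 1569 CPM, against 810.3 and 979 CPM in control (6 of 9 measured, none called by edgeR without the block). Of these, 4 had positive log2 fold changes, while TP63 and ACTA2 had −0.42 and −0.56. The part of these differences in the results was not tested.

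Of the 64 members, 2 were higher in carcinoma, 4 were lower and 58 did not pass. Across all genes 4.62% were called higher and 5.24% lower, 9.86% in either direction. OSMR and SOCS5 were the members that rose. LIFR, TNFSF11, IL17RD and IL13RA2 fell. The fitted log2 fold changes of the members ran from −1.74 to 1.34 with a median of −0.20, against a median of 0.03 over all genes. Both carcinoma libraries lay below both control libraries in 30 members and above them in 14, while over all genes these shares were 28% and 29.6%. A replicate block for the pool takes out the offset between pool 1 and pool 2, in which dogs and library depth cannot be told apart. With it 6 members were higher and 10 lower (7.09% and 6.83% of all genes). The 6 members called without the block were among them. The common dispersion was 0.00216 with the block and 0.0508 without it, so adjusted p-values of these fits are not on a par. The smallest adjusted p-values given below for IL13RA2 and SOCS5 come from the fit with the block.

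**Figure D1:**
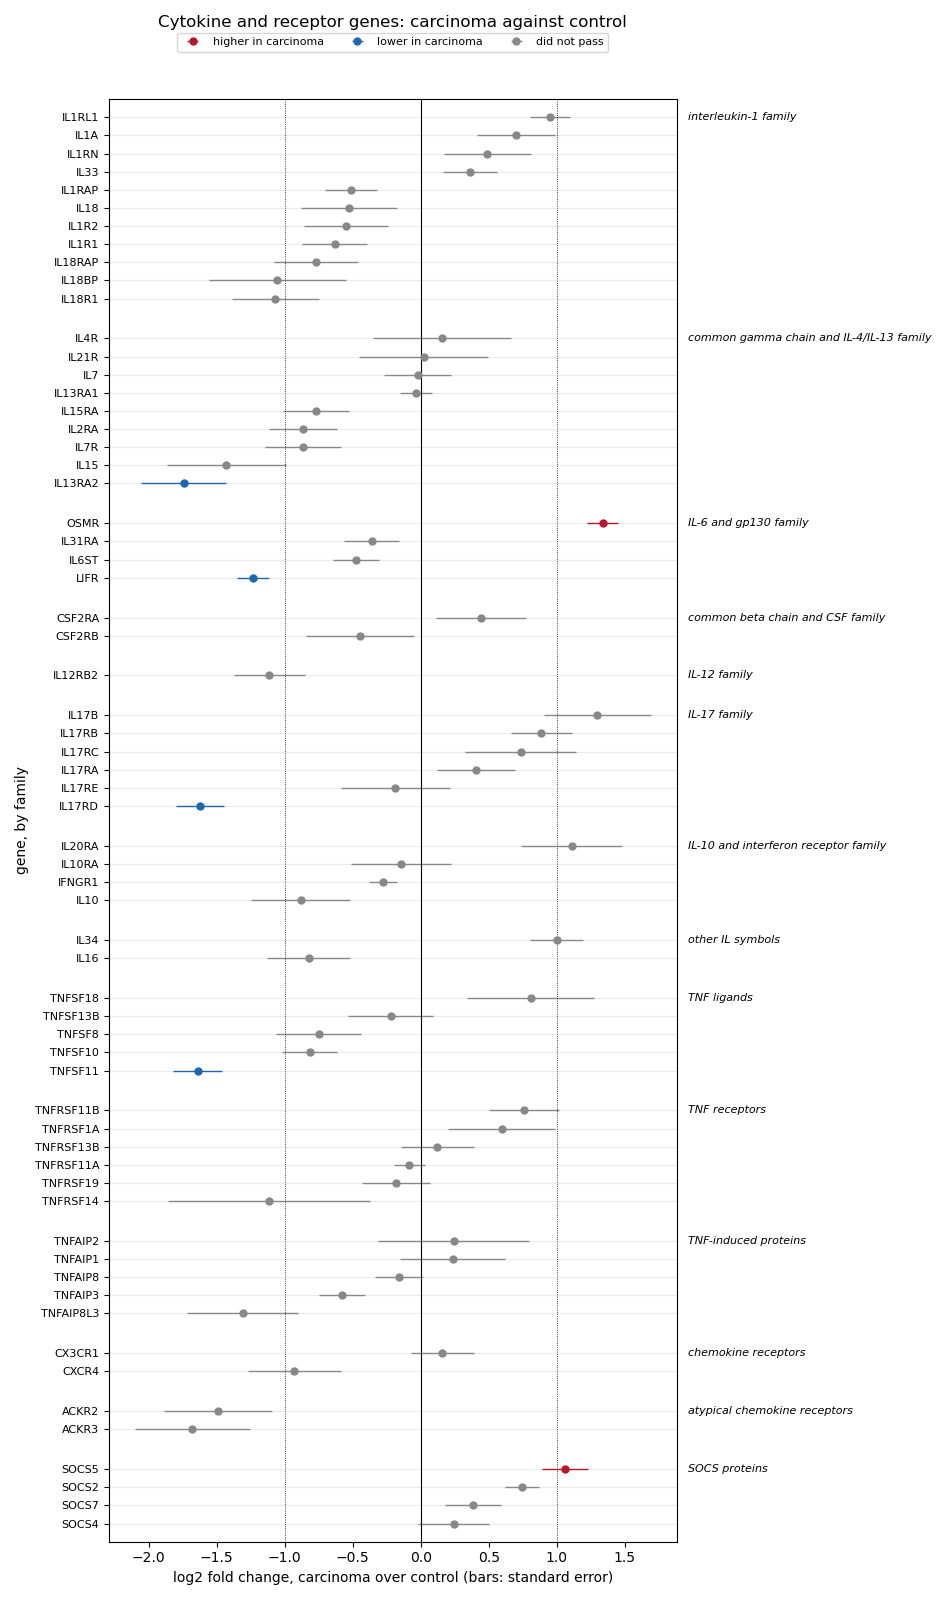
Log2 fold change of carcinoma over control (x axis) for 63 of the 64 genes, grouped by family, with standard errors as bars and dotted lines at the fold threshold. The 2 genes that rose are in red and the 4 that fell in blue, and the points run from −1.74 (IL13RA2) to 1.34 (OSMR).

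**Figure D2:**
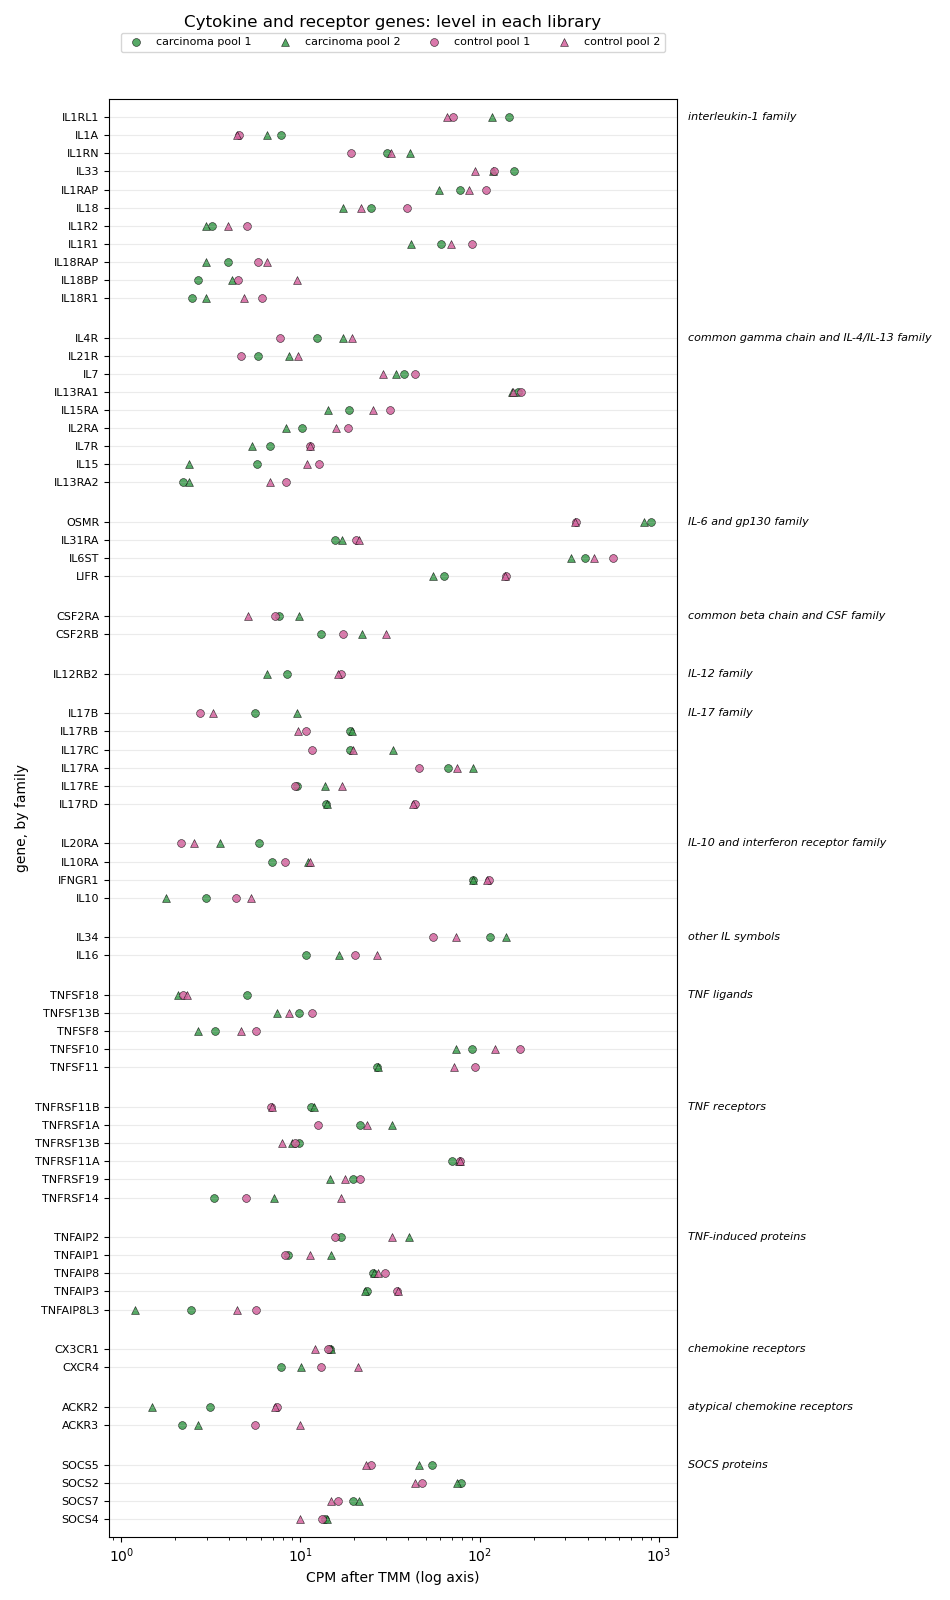
Level of 63 of the 64 genes in each library, in CPM after TMM on a log axis, with carcinoma in green, control in pink, circles for pool 1 and triangles for pool 2. OSMR lies at 901 and 827 CPM in carcinoma, to the right of its control values of 343 and 341 CPM, and LIFR shows the opposite order.

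In the IL-6 family 1 receptor gene rose and 1 fell. OSMR, which encodes the receptor chain for oncostatin M, had 901 and 827 CPM in T1 and T2, against 343 and 341 CPM in C1 and C2. The carcinoma pools lay far above both controls. The controls lay closer together than counting error on the 1472 counts of C2 would place them. The OSMR mean was 864 ± 51.7 CPM in carcinoma and 342 ± 1.37 CPM in control (SD, n = 2 each), for a log2 fold change of 1.34 ± 0.11 (SE, adjusted p = 0.00371).

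LIFR, which encodes the receptor chain for leukemia inhibitory factor, had 63.0 and 55.0 CPM in T1 and T2, against 140.1 and 139 CPM in C1 and C2. It averaged 59.0 ± 5.65 CPM in carcinoma and 139.6 ± 0.743 CPM in control (SD, n = 2 each), for a log2 fold change of −1.23 ± 0.12 (SE, adjusted p = 0.00490). The groups did not overlap for either gene, and both calls held when any single library was left out, with log2 fold changes between 1.23 and 1.40 for OSMR and between −1.39 and −1.15 for LIFR over all the alternatives tried. OSMR and LIFR are adjacent protein-coding genes in the RefSeq dog annotation, and each overlaps uncharacterized loci there.

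Both chains act together with gp130, encoded by IL6ST. IL6ST had 386 and 325 CPM in carcinoma, against 552 and 435 CPM in control, for a log2 fold change of −0.47 ± 0.17 (SE, adjusted p = 0.148) that did not pass. The ratio of raw OSMR to LIFR counts within a library, which no scaling between libraries can change, was 14.3 in T1 and 15.0 in T2, against 2.45 in both C1 and C2. This ratio was 5.84 times as high in carcinoma as in control in pool 1 and 6.13 times in pool 2, and the pair was chosen after its values had been seen. IL31RA, whose product joins OSMR in the receptor for IL-31, had 15.7 and 17.0 CPM in carcinoma and 20.4 and 21.3 CPM in control (log2 fold change −0.36 ± 0.20, SE, adjusted p = 0.315).

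**Figure D3:**
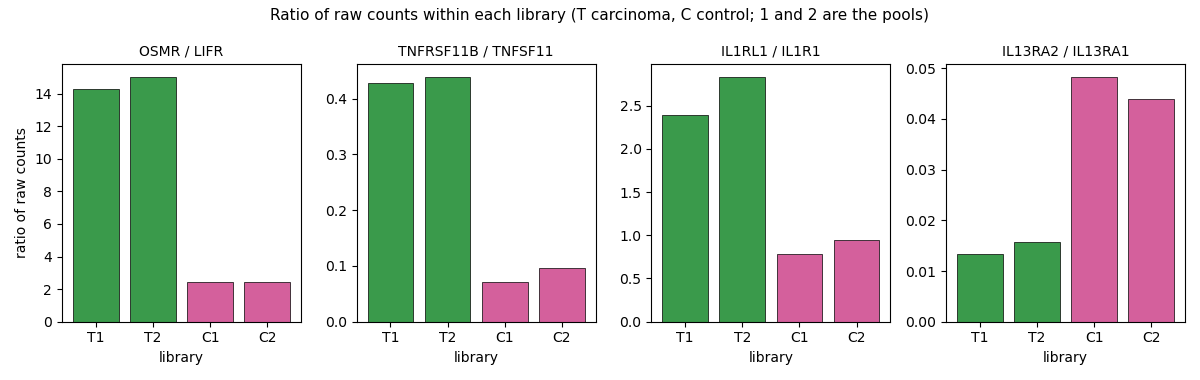
Ratio of raw counts of 4 gene pairs within each library (y axis, from 0), carcinoma in green and control in pink. OSMR to LIFR stands at 14.3 and 15.0 in carcinoma and 2.45 in each control, TNFRSF11B to TNFSF11 is also higher in both carcinoma libraries, and IL13RA2 to IL13RA1 is lower.

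Among the TNF ligands, RANKL fell. TNFSF11, which encodes RANKL, had 26.7 and 27.1 CPM in T1 and T2, against 94.7 and 71.9 CPM in C1 and C2. It averaged 26.9 ± 0.259 CPM in carcinoma and 83.3 ± 16.1 CPM in control (SD, n = 2 each), for a log2 fold change of −1.64 ± 0.18 (SE, adjusted p = 0.00650). Both carcinoma pools lay well below the lower of the controls. They lay closer together than counting error on the 91 counts of T2 would place them. The call held without any single library, with log2 fold changes from −1.82 to −1.47 over the alternatives.

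The receptor and the decoy of RANKL did not pass the test. TNFRSF11A, the gene of the receptor RANK, had 70.4 and 76.1 CPM in carcinoma and 77.2 and 77.9 CPM in control (log2 fold change −0.09 ± 0.11, SE, adjusted p = 0.661). TNFRSF11B, which encodes the soluble decoy osteoprotegerin, had 11.4 and 11.9 CPM in carcinoma, against 6.81 and 6.95 CPM in control, for a log2 fold change of 0.76 ± 0.26 (SE, adjusted p = 0.133). Its groups did not overlap, but it did not pass. Within each library the ratio of raw TNFRSF11B to TNFSF11 counts was 0.428 in T1 and 0.440 in T2, against 0.0719 in C1 and 0.0968 in C2, a pair also chosen after its values had been seen.

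Hormone receptor genes of luminal cells fell beside TNFSF11. PGR, which encodes the progesterone receptor, had 60.0 and 42.2 CPM in carcinoma, against 124 and 105 CPM in control (log2 fold change −1.14, adjusted p = 0.0245). ESR1, the estrogen receptor gene, had a log2 fold change of −1.87 (adjusted p = 0.00259) and PRLR, the prolactin receptor gene, one of −1.68 (adjusted p = 0.00291), while EPCAM, a general epithelial gene, had one of −0.32 and did not pass (adjusted p = 0.472). Set against these genes by raw counts, TNFSF11 stood at 0.310 and 0.353 of ESR1 in T1 and T2 and at 0.299 and 0.257 in C1 and C2, and at 0.148 and 0.184 of EPCAM in carcinoma and 0.376 and 0.463 in control. Its ratio to PGR was 0.445 and 0.641 in carcinoma, against 0.765 and 0.684 in control, and its ratio to PRLR was 0.0770 and 0.0897 in carcinoma, against 0.0896 and 0.0704 in control. The carcinoma ratio was thus 0.395 and 0.398 times the control ratio for EPCAM in pool 1 and pool 2, 0.582 and 0.936 times for PGR, 0.860 and 1.27 times for PRLR, and 1.04 and 1.37 times for ESR1. These comparison genes were chosen after their values had been seen. TNFSF11 was not set against ELF3, KRT19 or KIT, the luminal markers with positive log2 fold changes. Whether TNFSF11 and the hormone receptor genes fell for a shared reason was not tested.

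The other 4 TNF ligand genes did not pass. TNFSF10, which encodes the death ligand TRAIL, had 90.8 and 73.8 CPM in carcinoma, against 169 and 122 CPM in control (log2 fold change −0.82 ± 0.20, SE, adjusted p = 0.0629), and it was called without C2 (−1.02, adjusted p = 0.0174). TNFSF8, the gene of CD30 ligand, also lay lower in both carcinoma libraries (log2 fold change −0.75, adjusted p = 0.197). For TNFSF13B, which encodes the B cell survival factor BAFF, the tissues overlapped (log2 fold change −0.22, adjusted p = 0.682), as they did for TNFSF18, the gene of GITR ligand, with 5.01 and 2.08 CPM in carcinoma and 2.20 and 2.32 CPM in control. With the block TNFSF18 was called higher, although its 7 counts in T2 gave a lower level than the 10 counts of C2.

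None of the 6 TNF receptor genes was called by edgeR or by DESeq2, without or with the block, and TNFRSF11B alone reached an unadjusted p under 0.05 in edgeR without it. TNFRSF1A, which encodes the main TNF receptor of most cells, had 21.3 and 32.4 CPM in carcinoma and 12.6 and 23.4 CPM in control (log2 fold change 0.59 ± 0.39, SE, adjusted p = 0.386). It was higher in carcinoma within each pool, but T1 lay below C2. TNFRSF14, which encodes the herpesvirus entry mediator, had 3.29 and 7.14 CPM in carcinoma and 4.94 and 16.9 CPM in control, with an SE of 0.74 on its log2 fold change of −1.12 (adjusted p = 0.388). TNFRSF13B, which encodes a receptor of BAFF on B cells, had a log2 fold change of 0.12, and TNFRSF19, a receptor gene of epithelia and neural tissue, one of −0.18.

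In the interleukin-1 family none of 11 genes was called by edgeR or by DESeq2 without the block, and 4 had an unadjusted p under 0.05 in edgeR, as had 28.5% of all genes. IL1RL1, which encodes ST2, the receptor of IL-33, had 145 and 117 CPM in T1 and T2, against 70.7 and 65.4 CPM in C1 and C2. Both carcinoma pools lay clearly above both controls, and the log2 fold change of 0.95 ± 0.15 (SE, adjusted p = 0.0161) passed the p but stayed under the fold threshold, which it crossed when T2 was left out (1.09). IL33 itself, an alarmin released by damaged epithelial and stromal cells, had 156 and 118 CPM in carcinoma and 120.0 and 93.7 CPM in control (log2 fold change 0.36 ± 0.20, SE, adjusted p = 0.301), and T2 lay below C1.

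The IL-1 receptor and its accessory chain had lower values in carcinoma. IL1R1, the signaling receptor of IL-1, had 60.6 and 41.3 CPM in carcinoma, against 90.7 and 69.1 CPM in control (log2 fold change −0.63 ± 0.24, SE, adjusted p = 0.163). IL1RAP, the accessory chain that IL1R1 and IL1RL1 share, had 77.7 and 58.9 CPM in carcinoma, against 108.9 and 86.9 CPM in control (log2 fold change −0.51 ± 0.19, SE, adjusted p = 0.162). Neither passed. For each gene both carcinoma libraries lay below both controls, as they did for 28% of all genes. The ratio of raw IL1RL1 to IL1R1 counts was 2.39 in T1 and 2.83 in T2, against 0.779 in C1 and 0.946 in C2, a pair chosen after its values had been seen. In the RefSeq annotation IL18RAP, IL18R1 and IL1RL1 lie next to each other, and IL1RL2, which was not analysed here, stands between IL1RL1 and the neighbours IL1R1 and IL1R2.

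The 4 genes of IL-18 signaling had negative log2 fold changes, and none passed without the block. IL18R1, a receptor chain of IL-18, had 2.49 and 2.97 CPM in carcinoma, against 6.10 and 4.87 CPM in control, for a log2 fold change of −1.07 ± 0.32 (SE, adjusted p = 0.0989) that passed with the block. IL18RAP, its partner chain, had a log2 fold change of −0.77 (adjusted p = 0.183), IL18BP, the secreted inhibitor, one of −1.05 (adjusted p = 0.248) and IL18 one of −0.53 (adjusted p = 0.391), none of them called in either fit. IL1A had 7.81 and 6.54 CPM in carcinoma, against 4.54 and 4.40 CPM in control (log2 fold change 0.70 ± 0.29, SE, adjusted p = 0.194). IL1RN, which encodes the IL-1 receptor antagonist, had a log2 fold change of 0.49 (adjusted p = 0.382) and IL1R2, a decoy receptor, one of −0.55 (adjusted p = 0.316).

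In the family of the common gamma chain and of IL-4 and IL-13, IL13RA2 fell. This gene encodes a receptor that binds IL-13 with high affinity and is best known as a decoy. It had 2.20 and 2.38 CPM in T1 and T2, against 8.26 and 6.72 CPM in C1 and C2, from 77, 8, 244 and 29 counts. The mean was 2.29 ± 0.124 CPM in carcinoma and 7.49 ± 1.09 CPM in control (SD, n = 2 each), for a log2 fold change of −1.74 ± 0.31 (SE, adjusted p = 0.0250). The tissues were well apart in both pools, yet the call was lost when any single library was left out, with adjusted p-values from 0.0559 to 0.124 and log2 fold changes from −1.87 to −1.62 (adjusted p from 3.24e-13 to 0.124 over all alternatives).

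Its signaling counterpart did not pass. IL13RA1, which joins IL4R in the receptor for IL-13 and IL-4, had 164 and 152 CPM in carcinoma and 171 and 153 CPM in control (log2 fold change −0.04 ± 0.12, SE, adjusted p = 0.867). IL4R had 12.3 and 17.2 CPM in carcinoma and 7.65 and 19.5 CPM in control, so the difference between pools was as large as any between tissues. By raw counts IL13RA2 stood at 0.0134 and 0.0157 of IL13RA1 in T1 and T2, against 0.0483 and 0.0439 in C1 and C2.

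Of the other genes of this family, IL15, IL15RA, IL2RA and IL7R lay lower in both carcinoma libraries without passing, a position that 28% of all genes share. IL15, which sustains NK cells and memory T cells, had 5.69 and 2.38 CPM in carcinoma, against 12.8 and 10.9 CPM in control (log2 fold change −1.43 ± 0.44, SE, adjusted p = 0.106), and it was called with the block, although from 8 counts in T2. Without T1 its log2 fold change was −2.36 (adjusted p = 0.0484), a call that rests on those 8 counts. IL15RA, IL2RA and IL7R, the receptor chains for IL-15, IL-2 and IL-7, had log2 fold changes of −0.77, −0.87 and −0.87 (adjusted p = 0.113, 0.0940 and 0.118). These genes lay low in the same libraries in which the T and NK cell markers summed to 12.7 CPM or less, against 28.3 CPM or more in control, and the part of that difference was not tested. IL7 and IL21R, with log2 fold changes of −0.02 and 0.02, did not pass, and for both the direction differed between the pools.

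The IL-17 family held 1 gene that fell and 5 that did not pass. IL17RD, whose product restrains fibroblast growth factor signaling and also associates with IL17RA, had 14.0 and 14.0 CPM in T1 and T2, against 43.5 and 42.7 CPM in C1 and C2. The pools of a tissue were nearly equal, and the tissues were far apart. It averaged 14.0 ± 0.00968 CPM in carcinoma and 43.1 ± 0.587 CPM in control (SD, n = 2 each), for a log2 fold change of −1.62 ± 0.18 (SE, adjusted p = 0.00625), and the call held without any single library (log2 fold changes from −1.67 to −1.60 over the alternatives). The carcinoma values lie closer together than counting error on the 47 counts of T2 would place them. The SD of IL17RD in carcinoma is therefore no measure of its precision. The same holds for the control SDs of OSMR, LIFR, SOCS5 and IL17RD and the carcinoma SDs of TNFSF11 and IL13RA2.

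IL17B, a ligand of IL17RB, had 5.55 and 9.52 CPM in carcinoma, against 2.74 and 3.25 CPM in control (log2 fold change 1.30 ± 0.39, SE, adjusted p = 0.104). It was called higher with the block. IL17RB had 18.9 and 19.3 CPM in carcinoma, against 10.8 and 9.74 CPM in control (log2 fold change 0.89 ± 0.22, SE, adjusted p = 0.0636), below the fold threshold in both fits. Ligand and receptor thus both lay higher in both carcinoma libraries, as did 29.6% of all genes, and neither passed without the block. IL17RA, the chain shared by most IL-17 receptors, had a log2 fold change of 0.41 (adjusted p = 0.417). IL17RC and IL17RE, which overlap each other in the RefSeq annotation so that their reads may not be fully separable, had log2 fold changes of 0.73 and −0.19 (adjusted p = 0.308 and 0.795).

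Among the remaining interleukin genes, IL34 stood just under the fold threshold. IL34, which encodes a ligand of the macrophage receptor CSF1R, had 114 and 141 CPM in T1 and T2, against 54.6 and 73.7 CPM in C1 and C2. All carcinoma values were above all control values, with a log2 fold change of 0.998 ± 0.20 (SE, adjusted p = 0.0330), and the gene was called with the block and when T1 or C2 was left out. The measured monocyte and macrophage markers summed to 404 and 429 CPM in carcinoma, against 764 and 659 CPM in control (10 of 14 measured, 2 lower, none at 0), and the part of this difference was not tested. Its receptor gene CSF1R had 63.3 and 101 CPM in carcinoma and 68.2 and 111 CPM in control (log2 fold change −0.13, adjusted p = 0.831), and CSF1, the other ligand, had a log2 fold change of −0.01 (adjusted p = 0.992). IL16, a chemoattractant of CD4+ cells, had 10.8 and 16.4 CPM in carcinoma, against 20.3 and 26.9 CPM in control (log2 fold change −0.82 ± 0.31, SE, adjusted p = 0.161).

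IL12RB2, a chain of the IL-12 receptor of T and NK cells, had 8.44 and 6.54 CPM in carcinoma, against 16.9 and 16.2 CPM in control. Its log2 fold change of −1.11 ± 0.26 (SE) narrowly missed the test (adjusted p = 0.0538) and passed with the block. IL20RA, a receptor chain for IL-19, IL-20 and IL-24 on epithelia, had 5.87 and 3.57 CPM in carcinoma, against 2.17 and 2.55 CPM in control (log2 fold change 1.11 ± 0.37, SE, adjusted p = 0.131), and it too passed with the block. IFNGR1, a chain of the interferon gamma receptor, had 92.0 and 92.2 CPM in carcinoma, against 113 and 110.1 CPM in control, a small difference (log2 fold change −0.28 ± 0.10, SE, adjusted p = 0.161) that exceeded the spread between pools. IL10, an anti-inflammatory cytokine, had a log2 fold change of −0.88 (adjusted p = 0.196) from 6 counts in T2, and IL10RA one of −0.15. CSF2RA and CSF2RB, the chains of the receptor for GM-CSF, had log2 fold changes of 0.44 and −0.45 (adjusted p = 0.439 and 0.512).

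No chemokine receptor was called by edgeR or by DESeq2 without the block, and of the 5 measured 3 had an unadjusted p under 0.05 in edgeR, a threshold that 28.5% of all genes passed. The lowest carcinoma levels relative to control were those of the scavengers. ACKR3, which removes CXCL12, had 2.17 and 2.68 CPM in T1 and T2, against 5.55 and 9.97 CPM in C1 and C2 (log2 fold change −1.68 ± 0.42, SE, adjusted p = 0.0658). ACKR2, which removes inflammatory CC chemokines and is known from lymphatic endothelium, had 3.15 and 1.49 CPM in carcinoma, against 7.42 and 7.19 CPM in control (log2 fold change −1.49 ± 0.40, SE, adjusted p = 0.0742). Both were called lower with the block, from 9 and 5 counts in T2. ACKR3 was also called without C1 (log2 fold change −2.15, adjusted p = 0.0488), while ACKR2 had a log2 fold change of −2.33 without T1 and was not called (adjusted p = 0.0624). Lymphatic endothelial markers summed to 117 and 119 CPM in carcinoma, against 881 and 701 CPM in control (5 of 6 measured, 4 lower, none at 0), and the part of this difference was not tested.

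CXCR4, the signaling receptor of CXCL12, had 7.75 and 10.1 CPM in carcinoma, against 13.0 and 20.9 CPM in control (log2 fold change −0.93 ± 0.34, SE, adjusted p = 0.159). CXCL12 itself fell, with 7.24 and 8.92 CPM in carcinoma, against 24.2 and 40.6 CPM in control (log2 fold change −2.02 ± 0.34, SE, adjusted p = 0.0210). The ligand and both of its receptors thus lay lower in both carcinoma libraries, as did 28% of all genes. The ligand passed, and neither receptor did without the block. For CX3CR1, the fractalkine receptor, the log2 fold change was 0.16 (adjusted p = 0.698). Of 11 measured chemokine ligands in a list of 40, 3 were higher and 2, CXCL12 and CCL5, lower. Over all genes 4.62% were called higher and 5.24% lower. The higher ligands were CCL28, CXCL14 and CXCL17, which epithelia secrete (log2 fold changes 2.10, 2.97 and 2.76).

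All 4 measured SOCS genes had higher values in both carcinoma libraries than in both controls, as did 29.6% of all genes, and SOCS5 passed. SOCS5, whose product is known to restrain signaling by the IL-4 and EGF receptors, had 53.9 and 46.1 CPM in T1 and T2, against 24.8 and 23.2 CPM in C1 and C2. It averaged 50.0 ± 5.50 CPM in carcinoma and 24.0 ± 1.14 CPM in control (SD, n = 2 each), for a log2 fold change of 1.06 ± 0.17 (SE, adjusted p = 0.0182). That is close to the fold threshold, and the call was lost without T1 (log2 fold change 0.89, adjusted p = 0.119) and without C1 (1.06, adjusted p = 0.0866), with adjusted p-values from 8.13e-23 to 0.119 over all alternatives.

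SOCS2, which restrains growth hormone signaling, had 78.9 and 74.6 CPM in carcinoma, against 47.8 and 43.8 CPM in control, for a log2 fold change of 0.74 ± 0.12 (SE, adjusted p = 0.0211) under the fold threshold. SOCS7 and SOCS4 had log2 fold changes of 0.38 and 0.24 (adjusted p = 0.295 and 0.590). CISH, another member of the SOCS family by sequence, had a log2 fold change of −0.84 (adjusted p = 0.330).

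Of the TNF-induced proteins none of 5 was called by edgeR or by DESeq2 without the block, and 2 reached an unadjusted p under 0.05 in edgeR, against 28.5% of all genes. TNFAIP3, which encodes A20, an inhibitor of NF-kB, had 23.6 and 22.9 CPM in carcinoma, against 34.6 and 35.0 CPM in control (log2 fold change −0.58 ± 0.17, SE, adjusted p = 0.0959). TNFAIP8L3, a lipid transfer protein gene, had 2.46 and 1.19 CPM in carcinoma, against 5.66 and 4.40 CPM in control (log2 fold change −1.31 ± 0.41, SE, adjusted p = 0.109), and was called with the block from 4 counts in T2. Without T1 its log2 fold change was −2.15 (adjusted p = 0.0959). TNFAIP8, TNFAIP1 and TNFAIP2 had log2 fold changes of −0.16, 0.24 and 0.24.

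Most signaling genes downstream of these receptors were not called, as was the case for most genes. Over all genes 9.86% were called in either direction, a share to set beside each list below. Of 7 measured JAK and STAT genes in a list of 11, none was higher and STAT5A, which carries the prolactin signal, was lower (log2 fold change −1.26 ± 0.24, SE, adjusted p = 0.0287). STAT3, which OSMR and LIFR activate, had 473 and 504 CPM in carcinoma, against 283 and 293 CPM in control, for a log2 fold change of 0.76 ± 0.11 (SE, adjusted p = 0.0128) under the fold threshold. Of 14 measured NF-kB genes in a list of 16, 2 were higher, namely NFKBIZ, which encodes an inducible co-regulator (log2 fold change 1.48 ± 0.12, SE, adjusted p = 0.00343), and BCL3, its relative (1.62 ± 0.34, SE, adjusted p = 0.0393). NFKBIA, the gene of the inhibitor that NF-kB itself induces, had 65.1 and 58.0 CPM in carcinoma, against 109.0 and 117 CPM in control, for a log2 fold change of −0.87 (adjusted p = 0.0120) under the fold threshold.

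Of 25 measured adaptors of TNF and interleukin-1 receptors in a list of 29, TNIP3, an A20-binding inhibitor, was higher (log2 fold change 1.54 ± 0.16, SE, adjusted p = 0.00549) and 24 did not pass. Among 5 measured TNF superfamily genes under other symbols in a list of 14, NGFR, the low-affinity neurotrophin receptor, was lower, with 0.544 CPM in T1 and a count of 0 in T2, against 6.74 and 13.0 CPM in control (adjusted p = 0.0190). Of 10 other cytokine and receptor genes in a list of 29, LEPR, the leptin receptor and a relative of gp130, rose by 1.77 on the log2 scale (standard error 0.16, adjusted p = 0.00413) and PRLR fell. The median log2 fold change was −0.24 for the JAK and STAT genes, 0.13 for the NF-kB genes and 0.12 for the adaptors, against 0.03 over all genes.

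By role, the 14 ligands had a median log2 fold change of −0.38 with 1 lower, the 34 signaling receptors one of −0.23 with 1 higher and 2 lower, and the 7 decoys, antagonists and scavengers one of −1.05 with 1 lower. The 9 intracellular proteins had a median of 0.24 with 1 higher. Over all genes the median was 0.03, with 4.62% called higher and 5.24% lower. Among the decoys, antagonists and scavengers, IL13RA2, ACKR2, ACKR3, IL18BP and IL1R2 lay lower in both carcinoma libraries, as did 28% of all genes. TNFRSF11B lay higher, as did 29.6% of all genes, and for IL1RN the tissues overlapped (log2 fold change 0.49).

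Within each pool of dogs the ratios of carcinoma to control were alike. The log2 ratio had the same sign in both pools in 59 of 64 members. The ratios of pool 1 and pool 2 had a Pearson correlation of 0.877 across the members, a description over genes that share libraries and are not independent. Neither value was computed over all genes, so neither can be read as particular to these members. OSMR had a log2 ratio of 1.39 in pool 1 and 1.28 in pool 2, LIFR −1.15 and −1.34, and IL17RD −1.64 and −1.61. The members farthest from equality were TNFSF18 (1.19 and −0.16), ACKR2 (−1.24 and −2.27), IL15 (−1.16 and −2.20) and IL10 (−0.55 and −1.58), each with fewer than 10 counts in T2.

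**Figure D4:**
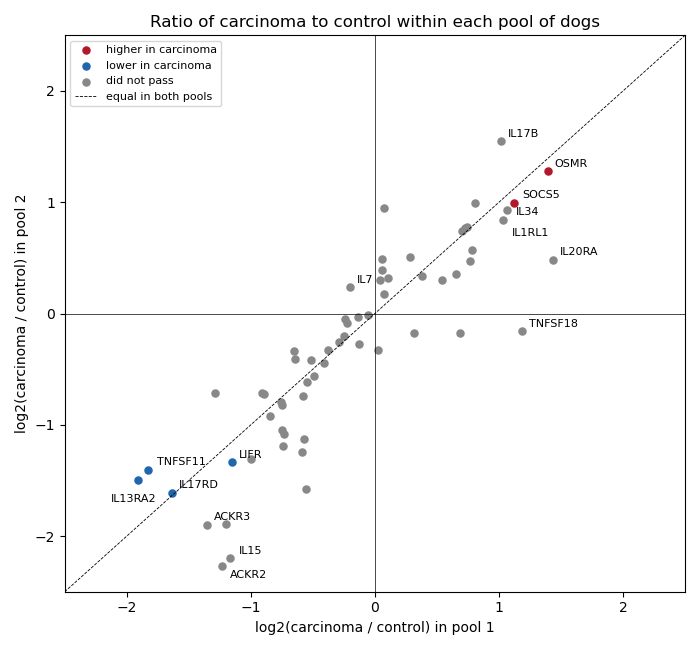
Carcinoma to control ratio on the log2 scale, with T1 over C1 on the x axis and T2 over C2 on the y axis, for 63 of the 64 genes, with the called genes in color and the dashed line marking equal ratios. The 6 called genes have the same sign in both pools, and the correlation over all 64 is 0.877.

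Pool 1 and pool 2 also differed from each other, mostly in the same direction in both tissues. Both libraries of pool 2 had far fewer counts, so differences between dogs cannot be told apart from those of depth or library. For 47 of the 64 members the offset of pool 2 against pool 1 had the same sign in carcinoma and in control. The Pearson correlation of the offsets was 0.676 across members, against 0.784 over the 11247 genes with a count in every library. The offset reached 0.5 or more upwards on the log2 scale in both tissues in 8 members, and downwards in IL18. Shares over all genes were not computed for these counts. The largest offsets were those of TNFRSF14, at 1.12 in carcinoma and 1.78 in control, and of TNFAIP2, at 1.27 and 1.06. These offsets count as error in the test without the block, and the members that carry them have standard errors of 0.35 to 0.74 on their log2 fold changes, against 0.11 for OSMR.

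**Figure D5:**
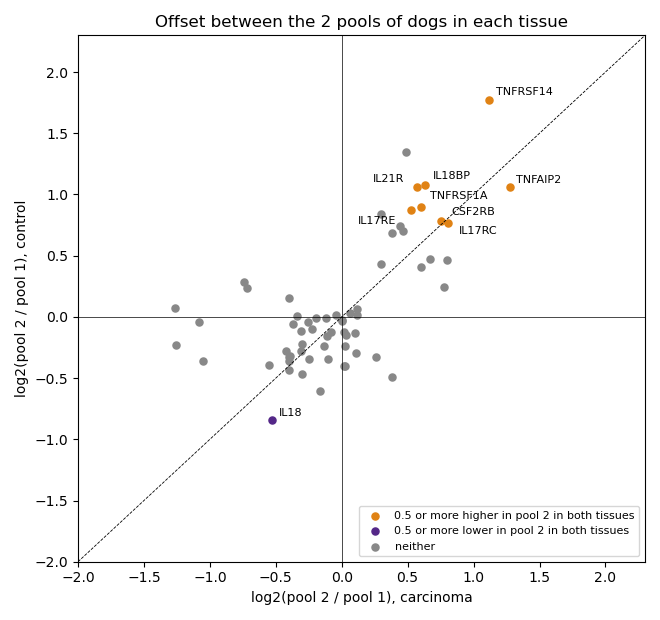
Log2 ratio of pool 2 to pool 1 in carcinoma (x axis) and in control (y axis) for 63 of the 64 genes, with the 8 genes higher and the 1 gene lower in pool 2 by 0.5 or more in both tissues named. TNFRSF14 lies highest at 1.12 and 1.78, and the correlation across all 64 genes is 0.676, against 0.784 over 11247 genes of the series.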

How the data were processed

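Gene counts of 4 total RNA libraries of dog mammary tissue were used, 2 of mammary ductal carcinoma and 2 of adjacent non-tumor tissue. The deposited counts are whole numbers per gene with no normalization. The paper names TopHat2 for mapping and HTSeq, run with defaults, for counting. The tools in the submitters' processing notes are FastQC, STAR, DESeq2 and featureCounts. No source used here gives the genome build or the strand setting, and 23 members overlap another RefSeq gene (assembly UU_Cfam_GSD_1.0, used for names and neighbors only), so reads of overlapping genes may not be separable. The deposited files also give a gene length in bases, which lay within 20% of the RefSeq span with introns for 41 of 63 matched members and was not used for levels. It was 5.14 times that span for IL34, 6.79 for SOCS2, 10.4 for IL1RN and 5.06 for TNFSF18. It was 0.0262 times the span for SOCS5, 0.0692 for SOCS4, 0.0185 for ACKR2 and 0.0151 for TNFAIP8L3. The counts of these genes may thus cover more or less than the RefSeq gene.

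The quasi-likelihood test of edgeR 4.0.16 (R 4.3.3) followed filterByExpr on the groups, TMM scaling and estimateDisp. DESeq2 1.42.0 served as the other tool, and matplotlib 3.10.9 drew the figures. Each fit ran on the whole table, and the Benjamini-Hochberg adjustment covered 11277 genes. The standard error (SE) of a log2 fold change is its size over the root of the F statistic. The main fit had no pairing term, as the paper names none for its comparison, although its normal samples were paired with the tumors. By the paper, libraries of one number share their dogs. They were also alike in depth, and across genes they deviated from their group means together (correlation 0.811). A fit with a replicate block for the pool was therefore an alternative. It leaves few residual degrees of freedom, and its common dispersion was 0.00216, against 0.0508 without the block. Its much smaller adjusted p-values are therefore not on a par with those of the fit without it. The fits were tested on simulated data. Libraries of a tissue were not copies of each other, as their counts gave a chi-square of 31.7 per degree of freedom in carcinoma and 46.0 in control. Counts of 0 or of a few reads carry counting error that the SD of 2 pools does not show.

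The rule for named genes took every called member, in each family the uncalled member with the highest mean CPM, the partners of called ligands and receptors, and up to 4 called genes of each companion list. Other genes named singly were chosen after their values were seen. The members and lists were chosen with earlier results of these data known. The values of 1 member are not reported here, while it stays in the counts over all members.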

Additional observations from a re-analysis of the deposited data

How the results depend on the processing

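Without a block, the same 2 higher and 4 lower members were called by edgeR with DESeq2 size factors and with library totals alone, and by DESeq2. The setting with no filter repeated the main fit, as the filter had removed no gene. Where each library had to hold 10 counts, 9 members were untested and 2 were higher and 3 lower, since IL13RA2 was removed. With the replicate block 6 members were higher and 10 lower (all genes 800 and 770, against 521 and 591), and by DESeq2 with the replicate block 3 were higher and 9 lower. All 6 members called without the block were called with it in both tools, while IL34, IL20RA, TNFSF18 and IL18R1 were called with the block by edgeR and not by DESeq2. By adjusted p alone 5 members were higher and 4 lower (all genes 782 and 785). At a fold threshold of 2 on the log2 scale the counts were 0 and 0 by edgeR (all genes 202 and 269), and no member reached that fold at any p in edgeR or DESeq2, while 30 (46.9%) had an unadjusted p under 0.05, against 28.5% of all genes. Leaving out each library in turn gave 1 to 3 higher and 3 to 4 lower members, the 1 without C1, where SOCS5 was lost and 342 and 421 genes were called in all. IL13RA2 was lost each time and SOCS5 without T1 or C1, while IL15 (without T1), ACKR3 (without C1), TNFSF10 (without C2), IL1RL1 (without T2) and IL34 (without T1 or C2) were gained.

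Of the single members' log2 fold changes, 648 alternative values kept direction and call, 22 gained and 6 lost the call, and 19 changed sign, none of a called member. The 648 include 64 values of the setting with no filter, which repeat the main fit. With library totals alone IL7 was at 0.031, and by DESeq2 IL21R was at −0.0080. The other changes of sign came from leaving out a library, which gave −0.28 to 0.28 for IL7, −0.53 to 0.58 for IL21R, −0.15 to 1.16 for TNFSF18, −0.00042 to 0.20 for TNFRSF13B, −0.65 to 0.28 for IL17RE, −0.47 to 0.15 for IL10RA, −0.48 to 0.93 for IL4R, −0.14 to 0.016 for IL13RA1, −0.48 to 0.83 for TNFAIP2 and −0.17 to 0.58 for TNFAIP1. The cause was not tested. The lone library of a tissue was then assumed to vary like the other tissue. In pool 2, 9 members rest on fewer than 10 counts in T2.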

Other observations

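In 5 members the direction differed between the pools of dogs. TNFSF18 had a log2 ratio of carcinoma to control of 1.19 in pool 1 and −0.16 in pool 2, from 175 and 65 counts in T1 and C1 and 7 and 10 counts in T2 and C2. IL4R had 0.69 in pool 1 and −0.17 in pool 2, IL21R 0.31 and −0.17, IL17RE 0.03 and −0.33, and IL7 −0.20 and 0.24. The difference between the pools was not tested, as each pool has a single library of each tissue.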
